A study of Mus musculus with 59 samples.

Results

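In the mouse uterus, 4944 of 25827 H3K4me3 peaks on chromosomes 1 to 19 and X shared no base with any peak of H3K27ac mapped in the same animals. The other 20883 H3K4me3 peaks overlapped an H3K27ac peak by at least 21 bases. Membership rested only on the positions of the peaks in the 2 deposited tables, on GRCm38. No level in those tables entered it directly, but the peaks were themselves found from the signal of the marks. Membership is therefore not independent of H3K27ac level. A site acetylated only in old mice can lie outside the set, and the effect of this on the comparisons with age was not tested. The peaks closest to the border of that rule were alike in level. The 3 members nearest to an H3K27ac peak lay 52, 108 and 119 bases from it, with mean H3K4me3 of 1.16, 1.50 and 1.46 log2 RPKM, and the 3 smallest overlaps outside the set were 21, 48 and 60 bases, at 1.40, 1.50 and 1.61 log2 RPKM.

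H3K4me3 is laid down around transcription start sites by the SET1 and MLL methyltransferase complexes, which are drawn to CpG-rich DNA, and H3K27ac is placed by p300 and CBP at promoters and enhancers in use. A promoter can carry H3K4me3 without acetylation. This state is well known at CpG-rich promoters of developmental regulators held silent by Polycomb, and it is also met at weakly used promoters and at promoters active in only a small fraction of the cells of a tissue. H3K4me3 alone does not separate these cases, because the mark is read from all cells of a sample together.

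The study mapped both marks in native chromatin, with no crosslinking, from an aliquot of 20000 nuclei per animal, out of snap-frozen pieces of endometrial tissue of C57/B6 mice. Of its 59 samples, 27 were H3K4me3 libraries, 27 were H3K27ac libraries of the same animals, and 5 were inputs that were not used here. The 7 young mice were 9 to 11 weeks old, the 4 mice of aged group 1 were 28 to 36 weeks, the 6 of aged group 2 were 42 to 48 weeks and the 10 of aged group 3 were 54 to 65 weeks. All were untreated mice of 1 strain as far as the labels say, and neither oestrous stage nor breeding history is given there. Values are log2 RPKM, the log2 of read number scaled to peak width and library size. Levels in each library are given after quantile normalization, which gives all 27 libraries the same overall distribution. The H3K4me3 libraries held 6.84 M to 48.3 M reads (median 10.0 M), of which 36.3 to 75.8% lay in peaks.

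The start sites that these peaks cover ranged from dense CpG islands to promoters with hardly a CpG. The 250 bases before the RefSeq start are given here for 6 of the genes named in the text, 5′ to 3′ on the strand of the gene, with each CpG in capitals, so that the range can be seen. Tdrd5 (chr1:156303349-156303598, minus strand), which encodes a Tudor protein of the germ cell piRNA pathway, Adcy5 (chr16:35154614-35154863, plus strand), an adenylyl cyclase, and Srpk2 (chr5:23675968-23676217, minus strand), a kinase of splicing factors, had the highest ratios of observed to expected CpG among the named genes. Ttll9 (chr2:152962235-152962484, plus strand), of the tubulin tyrosine ligase family, stood under the fourth highest named peak. Lrrn4 (chr2:132880863-132881112, minus strand) and Upk3b (chr5:136038246-136038495, plus strand), a pair of genes known as markers of mesothelium, were among the CpG-poor ones. The sequences are from RefSeq, build GRCm38.p6, and the start base next to each one lies inside a peak of the set.
Tdrd5: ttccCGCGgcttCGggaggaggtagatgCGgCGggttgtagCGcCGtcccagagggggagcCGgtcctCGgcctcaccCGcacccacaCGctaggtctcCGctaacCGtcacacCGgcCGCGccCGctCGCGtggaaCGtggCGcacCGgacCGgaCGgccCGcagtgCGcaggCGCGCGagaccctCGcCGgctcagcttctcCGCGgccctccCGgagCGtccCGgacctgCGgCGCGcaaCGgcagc
Adcy5: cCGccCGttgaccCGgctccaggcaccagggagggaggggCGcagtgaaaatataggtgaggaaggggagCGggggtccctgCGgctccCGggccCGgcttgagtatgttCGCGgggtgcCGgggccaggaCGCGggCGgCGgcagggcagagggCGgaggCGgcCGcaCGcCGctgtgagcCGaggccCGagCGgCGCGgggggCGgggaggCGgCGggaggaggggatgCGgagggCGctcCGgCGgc
Srpk2: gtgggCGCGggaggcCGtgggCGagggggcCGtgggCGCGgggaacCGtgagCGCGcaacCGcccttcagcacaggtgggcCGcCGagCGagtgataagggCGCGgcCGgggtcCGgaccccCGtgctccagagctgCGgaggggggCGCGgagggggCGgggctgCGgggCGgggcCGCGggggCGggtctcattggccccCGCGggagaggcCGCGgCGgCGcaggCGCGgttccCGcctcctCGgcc
Ttll9: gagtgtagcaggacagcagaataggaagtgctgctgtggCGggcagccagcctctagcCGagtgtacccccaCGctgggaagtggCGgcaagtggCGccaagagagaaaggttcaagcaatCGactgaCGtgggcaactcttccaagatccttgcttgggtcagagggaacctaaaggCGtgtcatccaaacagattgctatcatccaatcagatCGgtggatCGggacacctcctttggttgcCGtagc
Lrrn4: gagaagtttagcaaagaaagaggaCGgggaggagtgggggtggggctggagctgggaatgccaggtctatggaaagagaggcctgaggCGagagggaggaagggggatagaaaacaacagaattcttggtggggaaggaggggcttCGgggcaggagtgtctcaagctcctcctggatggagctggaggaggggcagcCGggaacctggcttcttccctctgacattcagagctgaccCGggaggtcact
Upk3b: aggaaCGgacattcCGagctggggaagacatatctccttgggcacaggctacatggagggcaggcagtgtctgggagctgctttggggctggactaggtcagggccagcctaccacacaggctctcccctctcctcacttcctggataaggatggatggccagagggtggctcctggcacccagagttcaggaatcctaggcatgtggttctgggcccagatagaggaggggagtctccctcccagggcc

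The ratio over the 300 bases of each promoter (250 before to 50 after the start) was 1.11 at Tdrd5, 1.05 at Adcy5 and 1.02 at Srpk2, against 0.667 at Ttll9, 0.315 at Lrrn4 and 0.0795 at Upk3b. Across 1760 promoters whose start lay in a peak of the set, the median ratio was 0.647 (quartiles 0.447 to 0.816) and 961 (54.6%) were CpG-rich, taken here as a ratio of at least 0.6 with at least 50% G and C. That was between the 14115 promoters whose peak overlapped H3K27ac, with a median of 0.760 and 67.4% CpG-rich, and the 16700 promoters in no H3K4me3 peak, with 0.195 and 2.96%. By gene group the split was wider. Of 43 promoters of developmental transcription factors in the set, 35 were CpG-rich (median ratio 0.807), as were 21 of 26 of neuronal genes and 11 of 12 of imprinted genes, but 1 of 6 of macrophage genes.

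Short promoter motifs, searched as exact letters on both strands of the same 300 bases, followed the same order for some elements and not for others. The GC box GGGCGG, bound by SP factors, was found in 59.6% of promoters in the set, 64.2% of those with H3K27ac and 9.46% of those in no peak, against 35.9% of all promoters. The ETS letters CCGGAAG stood in 4.38% of promoters in the set, 17.3% of those with H3K27ac and 2.30% of those in no peak (8.92% of all). The palindromic CRE letters TGACGTCA stood in 1.70%, 3.08% and 0.737% (1.81% of all). The TATA letters TATAAA were as frequent in the set (6.88%) as in promoters with H3K27ac (6.51%) and less so than in promoters without a peak (20.4%), with 13.7% over all. The CCAAT letters stood in 33%, 36.9% and 38.6% (37.6% of all), and the E-box CACGTG in 7.78%, 10.0% and 4.73% (7.20% of all). These matches describe the letters in the window and were not tested for binding.

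Peaks without H3K27ac were narrow and weak beside the rest. Their median width was 934 bases (range 244 to 9955) against 1973 for the others. Their mean level over the 27 libraries had a median of 1.71 log2 RPKM (quartiles 1.29 to 2.17) against 3.17, and each drew a median of 36.4 reads per library against 240. Only 409 (8.27%) reached the median level of all peaks, which 59.9% of the others did. The low counts limit what could be seen: 187 members (3.78%) averaged fewer than 5 reads per library, against 154 of the others (0.737%).

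Fewer of them sat at a gene start. A RefSeq start lay within 1 kb of 2192 members (44.3%), 1648 (33.3%) lay in a gene body, 282 (5.70%) in the flank of a gene and 822 (16.6%) between genes, while the shares among the others were 61.3, 24.0, 4.69 and 10.1%. The X chromosome stood apart from the autosomes in share. On it 214 of 713 H3K4me3 peaks (30.0%) lacked H3K27ac, against 4730 of 25114 (18.8%) on the autosomes and between 15.4% (chromosome 19) and 21.5% (chromosome 12) on each single autosome. The median H3K4me3 level of all X peaks, 2.72 log2 RPKM, was close to the 2.69 of autosomal peaks.

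The nearest H3K27ac peak was a median of 24749 bases away. It lay within 1 kb for 161 members (3.26%), within 5 kb for 765 (15.5%) and within 20 kb for 2179 (44.1%). For the 2022 genes named for a member at a start, 1352 (66.9%) had no H3K27ac peak named for them at all, and 419 (20.7%) had another H3K4me3 peak that did overlap H3K27ac.

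The strongest members were few and mixed. Pkib, an inhibitor of protein kinase A, had the highest mean, 5.01 log2 RPKM, at a peak of 348 bases outside its body, followed by Zfp418 at 4.23, Dph2, an enzyme of diphthamide synthesis, at 4.12 and Ttll9 at 4.06. Clybl, Arhgdig, Fmn1, Fhod3, Srpk2 and Prss16 followed between 3.93 and 3.62. The Dph2 peak was even across ages, from 3.95 to 4.30 in the young libraries, at 4.12, 4.25, 4.10 and 4.20 in aged group 1, from 3.98 to 4.50 in aged group 2 and from 3.89 to 4.26 in aged group 3. The groups overlapped over nearly their whole range (difference of aged group 3 from young −0.06 ± 0.07 (SE), limma adjusted p = 0.581). The widest of the named members were at Cyp26a1, which clears retinoic acid, with 5952 bases, Adcy5 with 5595, Lrrn4 with 5270, Plxna4, a semaphorin receptor, with 5135, and the antisense gene of Lef1 with 5072.

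Gene lists drawn up for the tissue and for genes expected to be silent in it differed widely in how many of their peaks lacked H3K27ac, against 4944 of 25827 over all peaks. That share depended on H3K4me3 level. In 5 equal classes of mean level it was 37.3, 36.5, 20.1, 1.76 and 0.0774%, from the lowest class to the highest. The lists were not compared at matched level, so lists of weak peaks have a higher share to be set against. Developmental transcription factors, the homeobox, SOX, GATA and related regulators of embryonic patterning, led with 118 of 139 peaks (84.9%) from 86 genes. Of their 81 peaks at a start, 70 were in the set. Their members were weak, with a median of 1.67 log2 RPKM, and lay a median of 61398 bases from the nearest H3K27ac peak. Irx2, Tfap2a and Prrx2 were among the highest of them, at 3.61, 3.10 and 2.80 log2 RPKM. Neuronal and synaptic genes followed with 87 of 131 (66.4%), among them channels such as Hcn4 (3.13 log2 RPKM) and Scn8a (3.09), the RNA-binding protein Elavl4 (2.96) and the synaptic vesicle sensor Syt1 (2.83).

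Peaks of the protocadherin clusters (6 of 8, all 6 named for 1 gene, Pcdha1, and 0 at a start) and of several lists of cell type markers were also often in the set. Among these were 8 of 12 of mesothelium and adipocyte genes, 5 of 8 of liver and gut genes and 12 of 30 of sperm genes. For immune cells they were 14 of 30 of T and NK cell genes, 15 of 34 of macrophage genes and 9 of 21 of B cell genes. Lists of cell type markers near the share over all peaks (4944 of 25827) were those of Schwann cells (3 of 14, 21.4%) and of neutrophils and mast cells (2 of 9, 22.2%). The lists of smooth muscle (8 of 24 peaks, 33.3%) and of blood endothelium (11 of 35, 31.4%) lay above that share. At the low end, 3 of 40 peaks of luminal and glandular epithelium (7.50%), 2 of 36 of endometrial stroma (5.56%), 4 of 41 of oestrogen and progesterone response genes, 8 of 76 of Polycomb and Trithorax subunit genes and 0 of 22 of interferon response genes lacked H3K27ac. The bar chart of shares by list shows this order.

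**Figure D1:**
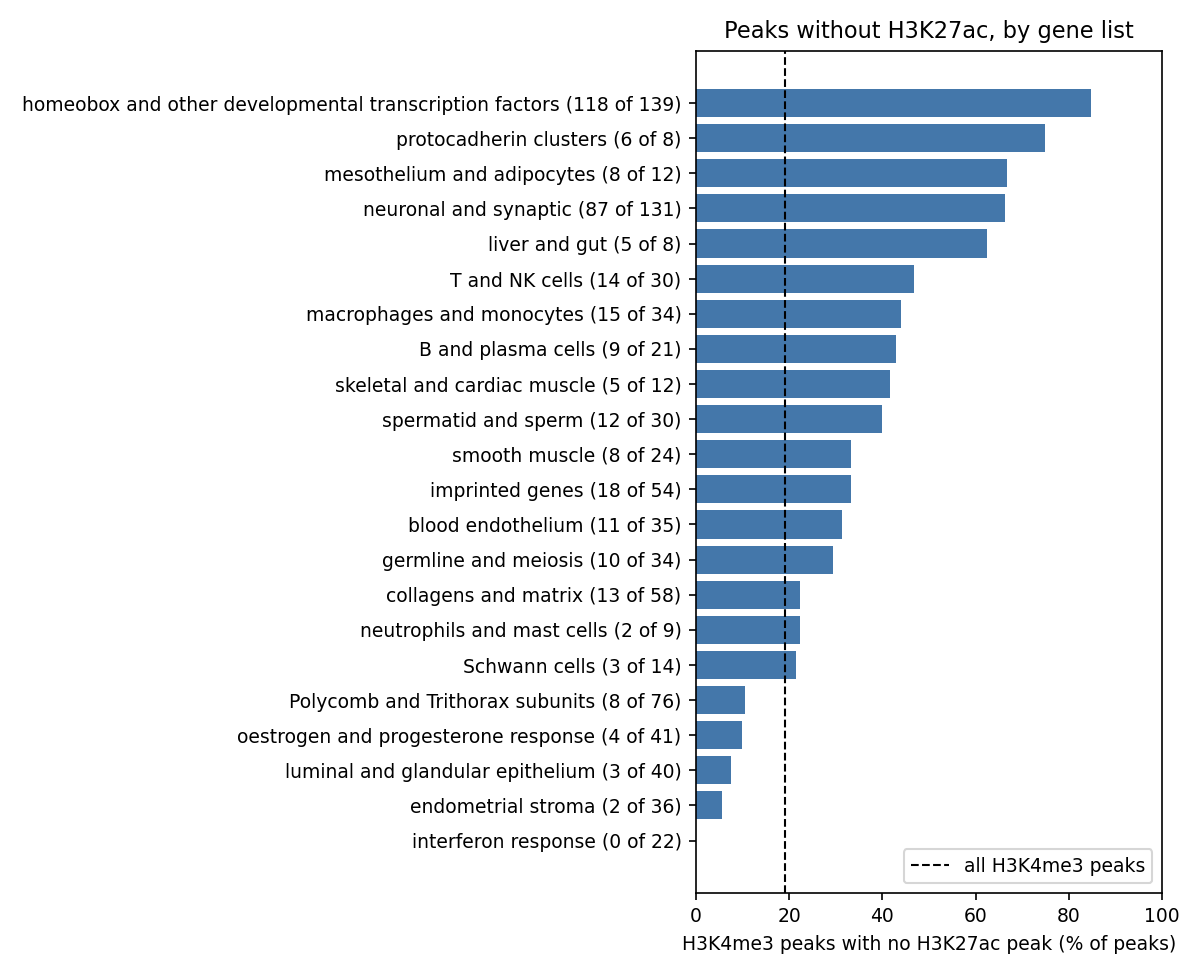
Horizontal bars give, for each gene list with at least 8 H3K4me3 peaks, the percentage of those peaks that overlap no H3K27ac peak, with the counts in brackets, and the dashed line is the share over all 25827 peaks. Developmental transcription factors stand at 84.9% and endometrial stroma at 5.56%, on either side of the line.

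The question of the study's design was how the marks change with age, and at these peaks H3K4me3 was lower in the oldest animals far more often than it was higher. Between aged group 3 and young mice, 528 of 4944 members rose (10.7%) and 1143 fell (23.1%) at an adjusted p under 0.05 (limma over all 25827 peaks with Benjamini-Hochberg adjustment), against 14.2% higher and 16.4% lower over all peaks (30.7% in either direction). The median change was −0.21 on the log2 scale for members and −0.02 over all peaks. A change of more than 2-fold was called for 307 members that rose and 466 that fell. Where the deposited values were used without further scaling, 411 rose and 1238 fell, with medians of −0.36 for members and −0.14 for all peaks.

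The shift could be read in whole libraries. The median member stood at 1.81 to 1.99 log2 RPKM in the young libraries (median 1.96), at 1.80 to 1.90 in aged group 1, at 1.77 to 1.89 in aged group 2 and at 1.61 to 1.85 in aged group 3 (median 1.76). The ranges of young and aged group 3 overlapped narrowly. The lowest libraries of aged group 3 were replicates 6 to 9, at 1.63, 1.64, 1.61 and 1.71, and its others read 1.75 to 1.85. Replicates 7 to 9 carry the digit 6 in the library code, which no young library has. Replicate 6 had the fewest reads per member of all libraries, with a median of 15. For members at gene starts the young libraries spanned 1.86 to 2.23 (median 2.13) and those of aged group 3 1.55 to 2.01 (median 1.75), with aged groups 1 and 2 at medians of 2.00 and 1.97. Members took 3.85 to 4.45% of all reads in peaks in young libraries and 3.23 to 4.11% in aged group 3.

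**Figure D2:**
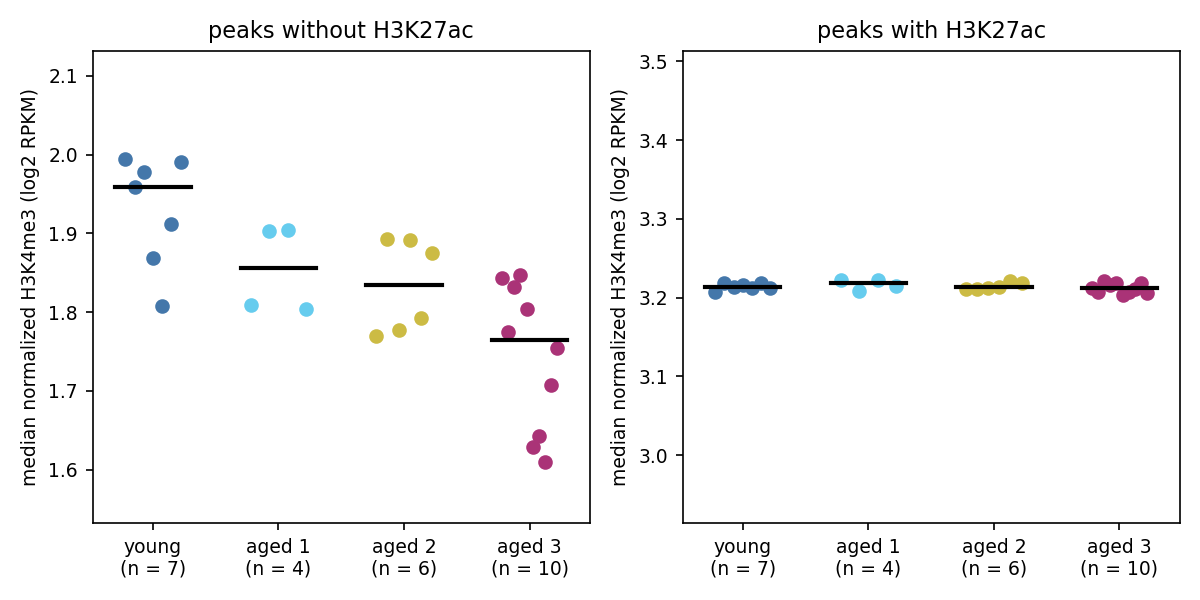
Each point is 1 library and its height the median normalized H3K4me3 in log2 RPKM over peaks without H3K27ac (left) and with it (right), the bars being group medians and both panels spanning the same number of log2 units. The young median on the left is 1.96 and that of aged group 3 1.76, while the right panel is held near 3.21 in all groups by the normalization.

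Falls were most frequent at gene starts. Of 2192 members at a start, 104 rose (4.74%) and 642 fell (29.3%), with a median change of −0.31, while of the 12791 other peaks at starts 9.93% rose and 16.2% fell. In gene bodies 210 rose (12.7%) and 339 fell (20.6%), against 20.6% higher and 15% lower over all peaks in gene bodies. In flanks 46 rose (16.3%) and 41 fell (14.5%), against 21.9 and 11% over all peaks there. Between genes 168 rose (20.4%) and 121 fell (14.7%), near the 22.2 and 13.3% over all peaks between genes. The share that fell was close at CpG-rich and other promoters: 252 of 808 members at CpG-rich promoters (31.2%) fell and 27 rose, against 205 that fell (32.1%) and 47 that rose among 639 members at other promoters. For peaks with H3K27ac the shares that fell were 14.2% at CpG-rich and 20.0% at other promoters.

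The difference in direction was also seen within classes of mean level, though these were not matched for place. In young libraries peaks with H3K27ac had a median of 3.78 log2 RPKM at starts and 1.91 in gene bodies. Members had 2.13 and 1.83. The mix of places within a class can therefore differ between members and others, and its part in the result was not tested. Among peaks in the lowest of 5 equal classes of mean level, 12.4% of 1929 members rose and 24.1% fell, while 28.8% of 3237 peaks with H3K27ac rose and 13.4% fell, with median changes of −0.31 and 0.29. In the next class 11.2% of 1884 members rose and 21.6% fell, against 21.9 and 15.1% of 3281 others. In the third class the falling shares were close, 24.1% of 1036 members and 23.3% of 4129 others, and the rising shares were 7.24 and 17.4%.

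**Figure D3:**
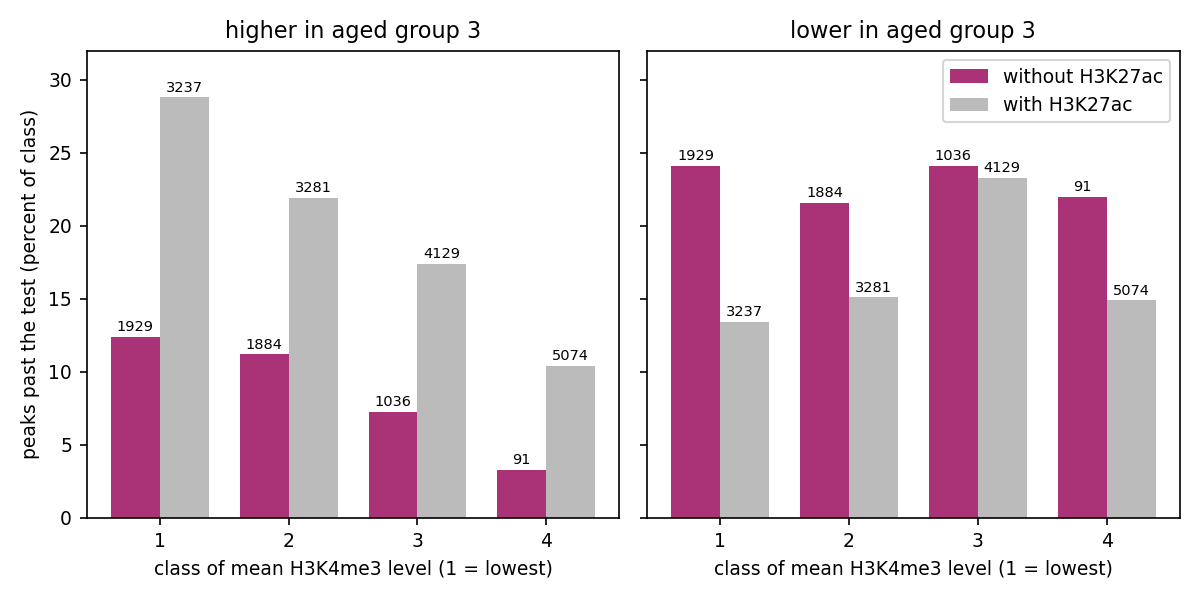
Bars give the percentage of peaks higher (left) or lower (right) in aged group 3 than in young mice at an adjusted p under 0.05, by class of mean H3K4me3 level, with the number of peaks above each bar and the highest class, which held 4 members, left out. In the lowest class 28.8% of peaks with H3K27ac rose against 12.4% of those without.

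Markers of the makeup of the tissue moved with age as well. The mean H3K4me3 at starts of 26 epithelium genes minus that at 22 stroma genes ran from −1.27 to −0.11 log2 units in the young libraries (median −0.78), from −0.66 to −0.39 in aged group 1, from −0.83 to 0.93 in aged group 2 and from −1.24 to 2.09 in aged group 3 (median 1.19). Of the epithelium peaks with H3K27ac, 28 of 37 rose, and of the stroma peaks 25 of 34 fell. With this difference as a covariate 63 members were called in place of 1671 (30 higher, 33 lower), and the median change of members was −0.11 in place of −0.21. The calls over all peaks dropped as well, from 7921 to 137 higher and 48 lower. Fewer cells of a type and less of the mark per cell cannot be told apart in these samples. With the digit in the library code as a factor, whose meaning the labels do not state, 538 members were called (203 higher, 335 lower).

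The members that rose with the smallest p lay away from gene starts, 10 of 12 in gene bodies and the others in flanks. Slc4a9, a bicarbonate and anion transporter of the SLC4 family, is one of them (chr18:36541253-36542537). Its peak read 0.93 to 1.77 log2 RPKM in the young libraries (median 1.65), 2.28, 2.76, 2.44 and 2.24 in aged group 1, 2.33 to 3.32 in aged group 2 (median 2.86) and 1.91 to 3.96 in aged group 3 (median 3.50). Every library of aged group 3 was above the highest young library, and the groups between lay between. It rose by 1.77 ± 0.22 (SE, n = 7 and 10, limma adjusted p = 5.31e-06).

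A peak in the body of Erg (chr16:95579090-95580280), an ETS factor of endothelial cells, read −0.47 to 0.82 in young mice (median 0.03), 0.40, 1.77, 1.04 and 0.58 in aged group 1, 0.59 to 1.58 in aged group 2 and 1.47 to 3.30 in aged group 3 (median 2.47). All 10 libraries of aged group 3 lay above the highest young one, and the rise was 2.25 ± 0.28 (limma adjusted p = 4.58e-06). The H3K27ac peak nearest to it, 5344 bases away, was lower in aged group 3 and fell by 0.49 on the log2 scale (SE 0.19, limma adjusted p = 0.0496). Another member, at the start of Erg (chr16:95585110-95585982), was at −0.14 ± 0.34 and did not pass (limma adjusted p = 0.779). Dnajc5b, a cysteine string protein of the DNAJ family, read −0.79 to 1.32 in young mice, 1.34, 0.75, 1.57 and 1.25 in aged group 1, 1.21 to 3.08 in aged group 2 and 2.13 to 3.33 in aged group 3. Its 10 oldest libraries were all above the young range.

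The other risers among the 12 were Ccdc178 (2.28 ± 0.28), Ccser1 (2.30 ± 0.31), St6galnac3, a sialyltransferase (2.70 ± 0.37), Mettl7a1 (2.82 ± 0.41), Gmds, which starts GDP-fucose synthesis (2.01 ± 0.29), Unc79, a subunit of the NALCN channel complex (2.02 ± 0.31), Frmd4a, a scaffold of cell polarity (2.54 ± 0.39), Skint11 (2.04 ± 0.32) and Adat2, a tRNA adenosine deaminase (1.50 ± 0.24), with limma adjusted p between 3.55e-06 and 0.000161. At least 8 of 10 libraries of aged group 3 were above every young library at each of the 12 peaks. Read numbers in the young libraries were low at several of them, so the sizes of these rises are uncertain. The young libraries held 1 to 7 reads at St6galnac3, 2 to 8 at Ccser1, 1 to 17 at Skint11, 4 to 17 at Ccdc178 and 1 to 20 at Mettl7a1.

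Among the 12 that fell with the smallest p, Gfra2, Sstr4, Mos, Tiam1, Wdr86 and a peak named for Cit, which covers the start of a predicted gene, lay at starts. Gfra2, the co-receptor of the neurotrophic factor neurturin, carried a peak of 2362 bases (chr14:70889324-70891685). It read 2.11 to 2.67 log2 RPKM in young mice (median 2.50), 2.08, 2.16, 2.13 and 1.61 in aged group 1, 1.64 to 2.42 in aged group 2 (median 2.10) and 0.73 to 1.86 in aged group 3 (median 1.36). No library of aged group 3 reached the lowest young one, and the peak fell by 1.10 on the log2 scale (SE 0.18, limma adjusted p = 0.000145).

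Sstr4, a somatostatin receptor (chr2:148394910-148396270), read 2.73 to 3.29 in young mice (median 3.00), 2.44, 3.27, 2.85 and 2.56 in aged group 1, 2.10 to 2.65 in aged group 2 (median 2.45) and 1.72 to 2.62 in aged group 3 (median 2.09). Its groups young and aged 3 did not overlap, and it fell by 0.93 (SE 0.14, limma adjusted p = 8.33e-05). The H3K27ac peak 349 bases away fell by 0.57 on its own log2 scale (SE 0.18, limma adjusted p = 0.0221).

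Mos, the kinase that holds oocytes in meiotic arrest, read 2.33 to 2.61 in young mice (median 2.44), 1.44, 2.58, 2.01 and 2.01 in aged group 1, 0.91 to 2.17 in aged group 2 (median 1.83) and −0.07 to 2.09 in aged group 3 (median 1.11). The young libraries lay close together and above all of aged groups 2 and 3. It fell by 1.46 (SE 0.25, limma adjusted p = 0.000249), and the H3K27ac peak 2531 bases from it fell by 0.94 (SE 0.15, limma adjusted p = 0.000357).

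The other fallers were Ptprs, a receptor tyrosine phosphatase (−1.76 ± 0.28), Rasa4, a GTPase-activating protein for Ras (−1.39 ± 0.22), Ebf4 (−2.48 ± 0.41), the reelin adaptor Dab1 (−3.29 ± 0.54), Cit (−1.51 ± 0.25), Ppp1r13l, an inhibitor of p53 family proteins (−1.65 ± 0.28), Rapgef5, an exchange factor for Rap (−2.19 ± 0.38), Tiam1, an exchange factor for Rac (−1.60 ± 0.28), and Wdr86 (−0.96 ± 0.17), with limma adjusted p between 0.000125 and 0.000338. The Dab1 peak drew 25 to 102 reads in the young libraries, 2 to 9 in 9 libraries of aged group 3 and 107 in the other, and with so few reads the size of its change is uncertain. Read numbers in aged group 3 were also low at Ppp1r13l (0 to 8), Ebf4 (1 to 17), Rasa4 (2 to 16) and Ptprs (3 to 31). The sizes of those falls are uncertain too. With the epithelium and stroma difference as a covariate all 24 named members kept their direction and 13 no longer passed the test (limma adjusted p between 0.0539 and 0.186): Mettl7a1, Unc79, Frmd4a, Adat2, Ptprs, Gfra2, Rasa4, Cit, Ppp1r13l, Mos, Rapgef5, Tiam1 and Wdr86.

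**Figure D4:**
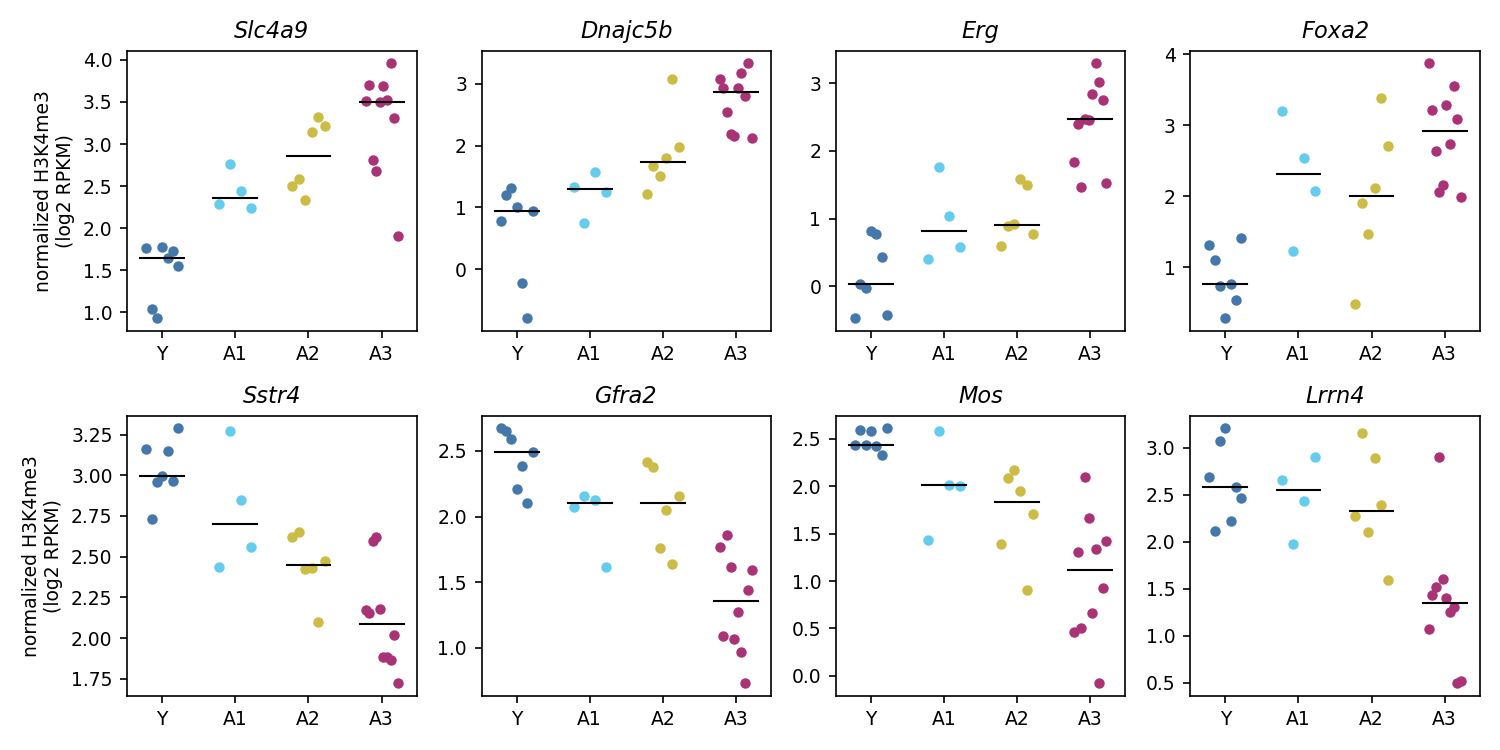
Points are libraries and bars group medians of normalized H3K4me3 in log2 RPKM at 8 named peaks, for young mice (Y, n = 7) and aged groups 1, 2 and 3 (A1, n = 4, A2, n = 6, A3, n = 10), each panel with its own axis. At Slc4a9, Dnajc5b, Erg and Foxa2 all 10 libraries of aged group 3 lie above the young range, and at Sstr4, Gfra2 and Mos all lie below it.

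Developmental regulators and neuronal genes, both mostly without H3K27ac, differed in how many members passed the test. Of 118 members at developmental transcription factors, 6 rose and 11 fell (14.4% called, against 30.7% over all peaks), with a median change of −0.03. Irx2 (0.21 ± 0.12), Tfap2a (0.00 ± 0.14) and Prrx2 (−0.04 ± 0.19) did not pass the test. The risers included Otx1, Nkx2-1, Foxa1, Tbx1 and Shox2, chosen for mention after their values were seen, and Foxa1, a forkhead factor of epithelia, changed most among them (1.02, limma adjusted p = 0.00353). Of 87 neuronal and synaptic members, 5 rose and 28 fell (37.9% called), with a median of −0.49. Elavl4 read 3.00 to 3.62 in young mice, 2.89, 3.65, 3.33 and 3.00 in aged group 1, 2.60 to 3.23 in aged group 2 and 2.12 to 3.13 in aged group 3, where 8 of 10 libraries were below the young range. It fell by 0.70 (SE 0.15, limma adjusted p = 0.00152), Hcn4 fell by 0.56 (SE 0.16) and 1 of 3 Scn8a peaks by 0.47 (SE 0.13), while the Syt1 start peak, at −0.10 ± 0.17, did not pass.

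Most members at mesothelial markers fell. Of 8 members at mesothelium and adipocyte genes, 6 fell and 0 rose, at Lrrn4, Upk3b, Upk1b, Msln and Bnc1 (2 peaks), with a median of −1.42 over the 8. The share that fell was 16.4% over all peaks, 23.1% over all members and 29.3% over members at a start. Lrrn4 read 2.11 to 3.21 in young mice (median 2.59), 2.66, 1.98, 2.43 and 2.90 in aged group 1, 1.60 to 3.16 in aged group 2 (median 2.33) and 0.50 to 2.90 in aged group 3 (median 1.35). The fall was carried by 9 of the 10 oldest libraries, which lay below the young range, and the peak fell by 1.27 (SE 0.26, limma adjusted p = 0.00136). With the epithelium and stroma difference as a covariate the difference was −1.19 and did not pass (limma adjusted p = 0.103). Upk3b fell by 1.57 (SE 0.39, limma adjusted p = 0.00465), from 1.78 to 3.09 in young mice to −0.83 to 2.94 in aged group 3, where 9 of 10 libraries were below the young range. How much of the outer uterine surface each piece of tissue held is not stated in the labels, and its part in this result was not tested.

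Of 18 members at imprinted genes, 9 fell and 1 rose, with a median of −0.58. Falls also outnumbered rises over all members (23.1% fell and 10.7% rose), and over all peaks 16.4% fell and 14.2% rose. The H19 peak, in the flank of this maternally expressed noncoding gene, fell by 0.62 (SE 0.14, limma adjusted p = 0.00277). Peaks at Meg3, Mest, Herc3, Zim1, Usp29 and Blcap, 1 peak at a start of Cdkn1c and 1 in the flank of Asb4 fell by between 0.56 and 1.37. The start peak of Asb4 (0.13 ± 0.23) did not pass. Neither did the other Cdkn1c members, at a start (0.11 ± 0.20) and in the flank (0.97 ± 0.38). Phlda2 (−0.22 ± 0.13) did not pass. Of 13 members at collagen and matrix genes, 5 fell and 0 rose (median −0.56, beside the same 23.1% of all members and 16.4% of all peaks that fell): Col26a1, Fbn2, Lama1, Col5a3 and Hapln1. The highest member of the list, at Col25a1 (3.52 log2 RPKM), was at −0.18 ± 0.10 and did not pass.

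**Figure D5:**
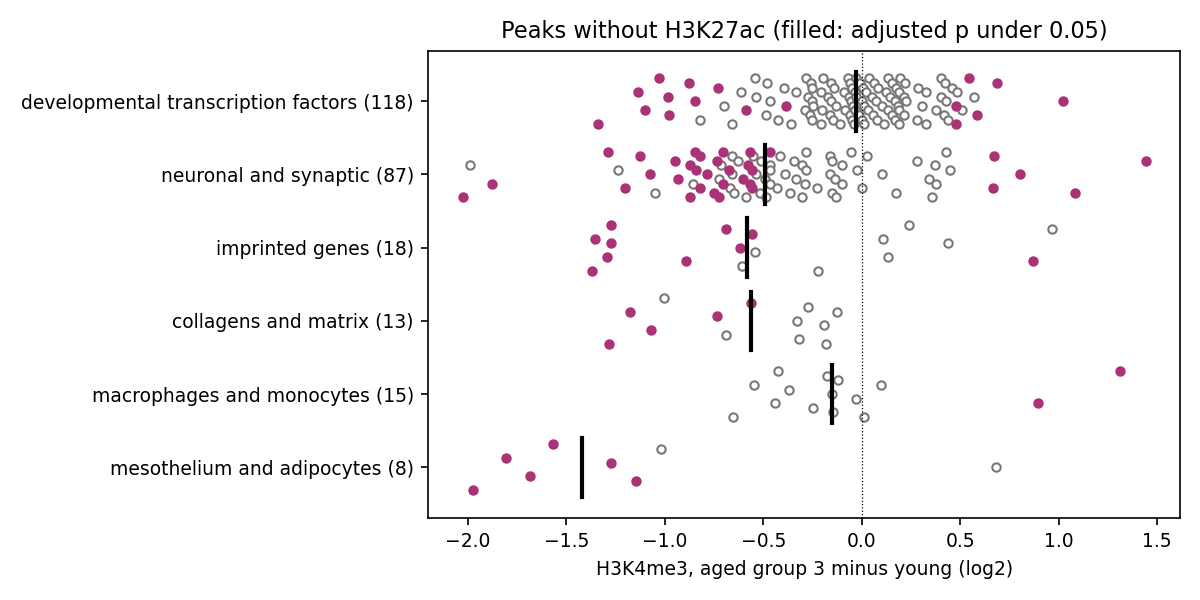
Points are members of 6 gene lists, placed by the difference in H3K4me3 between aged group 3 and young mice in log2 units and spread vertically only for legibility, with filled points past an adjusted p of 0.05, vertical bars at list medians and the number of members in brackets. Mesothelium and adipocyte genes have their median at −1.42 and developmental transcription factors at −0.03.

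Among the lists, members that rose included peaks at Foxa2 and Mbp. The 2 members at Foxa2, the forkhead factor of uterine glands, both rose. The peak over its start (chr2:148043009-148047352) read 0.28 to 1.41 log2 RPKM in young mice (median 0.76), 3.20, 1.23, 2.54 and 2.08 in aged group 1, 0.48 to 3.38 in aged group 2 (median 2.01) and 1.99 to 3.87 in aged group 3 (median 2.91). Aged group 3 did not overlap the young range, aged group 2 overlapped it, and the rise was 1.98 ± 0.33 (limma adjusted p = 0.000197). It was 1.30, with an adjusted p of 0.121, with the epithelium and stroma difference as a covariate, which contains this peak as 1 of its 26 epithelium genes. The remaining member of the epithelium list, in the body of Wnt7b, a WNT ligand of uterine epithelium, fell by 1.30 (SE 0.43, limma adjusted p = 0.0241).

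Mbp, which encodes a myelin protein, had 2 members, both in the gene body, and 1 of them rose by 2.51 ± 0.42 (limma adjusted p = 0.00021). That peak drew only 1 to 10 reads in the young libraries, so the size of its rise is uncertain. The other Mbp member, at −0.05 ± 0.26, did not pass (limma adjusted p = 0.912). Of 15 macrophage members 2 rose and 0 fell (13.3% called, against 30.7% over all peaks), and the list median was −0.15. The members that rose were at Cd163, a scavenger receptor (0.90 ± 0.20, limma adjusted p = 0.00257), and at Itgam, the CD11b integrin chain (1.31 ± 0.43, limma adjusted p = 0.0219). Itgam read 0.31 to 1.08 in young mice and 0.92 to 4.13 in aged group 3, and 1 library of aged group 1 read 3.12 beside 0.40, 0.21 and 0.36 in the others. The highest libraries of aged group 3 were replicates 7, 8 and 9, at 4.13, 3.06 and 3.34, which carry the code digit 6. Its others read 0.92 to 2.64. Of 14 T and NK cell members 3 rose (Skap1, Gata3 and 1 Bcl11b peak) and 3 fell (Ncr1, Il2rb and the Bcl11b start peak), where 14.2% of all peaks rose and 16.4% fell. The Skap1 peak, at 0.92 ± 0.31, turned to −0.18 with the epithelium and stroma difference as a covariate (limma adjusted p = 0.845).

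Hormone response genes had 4 members, of which Susd3, which responds to oestrogen (−0.98 ± 0.19, limma adjusted p = 0.000909), and Areg, the EGF receptor ligand amphiregulin (−0.55 ± 0.20, limma adjusted p = 0.0394), fell. Sgk1, a kinase of ion transport, was at −0.33 ± 0.13 (limma adjusted p = 0.0511). Of 8 smooth muscle members 3 fell, at Lmod1, Synpo2 and the start of Myocd, the master coactivator of smooth muscle genes (−0.74 ± 0.24, limma adjusted p = 0.0235), and 0 rose. Over all members 23.1% fell, and over all peaks 16.4%. Star, which carries cholesterol into mitochondria for steroid synthesis, fell by 1.18 (SE 0.36, limma adjusted p = 0.0147).

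Acetylation near these peaks went with H3K4me3 in part. An H3K27ac peak lay within 20 kb of 446 of the 1143 members that fell, and at 127 of these (28.5%) H3K27ac also fell, while it rose at 41 (9.19%), with a median of −0.26. For 266 of the 528 members that rose, nearby H3K27ac rose at 58 (21.8%) and fell at 32 (12%), with a median of 0.01. For 1467 members that did not pass, 12.1% of nearby H3K27ac peaks rose and 13.8% fell. Over all 54354 H3K27ac peaks 14.4% rose and 14.9% fell (29.3% in either direction).

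Few members passed the test in the younger aged groups. Aged groups 1 and 2 held 4 and 6 animals against 10 in aged group 3. Smaller groups detect less, so these counts do not compare directly with those of aged group 3. In aged group 2, 11 members were higher and 1 lower (over all peaks 0.205% higher and 0.0116% lower, 0.217% in all), with 550 at an unadjusted p under 0.05. With limma voom on recovered reads 1 was higher and 3 lower. No member was called by limma when the mouse number series was a term or without libraries of code digit 6, and on the values as deposited 16 were higher and 0 lower. All young mice but 1 have low mouse numbers and all mice of aged groups 1 and 2 have high ones. Series and age can thus hardly be told apart in that fit. Without young replicates 1, 2 and 3 in turn the count of called members was 4, 4 and 5, and without replicates 1, 3, 4, 5 and 6 of aged group 2 it was 5, 4, 6, 2 and 4. Slc4a9 was higher by 1.36 ± 0.25 (limma adjusted p = 0.00966) and Ccdc178 by 1.53 ± 0.31 (limma adjusted p = 0.0258). The member that fell was the start of Gnasas1, the antisense transcript of the imprinted Gnas locus, which read 2.40 to 2.64 in young mice, 2.20, 1.53, 1.79 and 2.08 in aged group 1, 1.51 to 2.08 in aged group 2 and 1.23 to 2.16 in aged group 3. The lowest young library was above all 20 aged libraries. It fell by 0.79 in aged group 2 (SE 0.17, limma adjusted p = 0.0409) and fell by 0.85 in aged group 3 (SE 0.15, limma adjusted p = 0.000385).

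No member was called between aged group 1 and young mice by limma (0.00387% over all peaks), with 294 at an unadjusted p under 0.05 and 1 called when limma voom was run on recovered reads. The median change of members was −0.09, against −0.11 in aged group 2 and −0.21 in aged group 3, all set against the same young libraries. Between aged groups 3 and 2, 5 members were higher and 6 lower (over all peaks 0.0542% higher and 0.151% lower, 0.205% in all), with 1087 at an unadjusted p under 0.05. Slc5a8, a transporter of monocarboxylates, was higher in aged group 3 by 1.08 ± 0.22, Unc79 by 1.71 ± 0.32 and the peak in the body of Erg by 1.37 ± 0.29, each at a limma adjusted p of 0.0405. At the same adjusted p by limma, Cadm1, a cell adhesion molecule (−1.23 ± 0.24), Sorbs2 (−1.78 ± 0.36), Cdh9, a cadherin (−1.23 ± 0.26), and Pcdh20, a protocadherin (−1.01 ± 0.22), were lower. The start of Cdh9 read 2.03 to 2.85 in young mice, 2.66, 2.72, 2.68 and 2.75 in aged group 1, 1.99 to 3.39 in aged group 2 and 0.88 to 2.73 in aged group 3. The count turned on single libraries: it was 0 without any 1 of replicates 1 to 4 of aged group 2 or replicates 2 and 5 to 9 of aged group 3, 1 without aged group 2 replicate 6, and 197 to 340 without replicate 5 of aged group 2 or replicates 3, 4 or 10 of aged group 3. With each library centred on its median, 3 members were higher and 17 lower, and with limma voom on recovered reads 13 and 84. No member was called by limma on the values as deposited, with the code digit, the replicate number or the epithelium and stroma difference as a term, or without libraries of code digit 6.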

How the data were processed

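The authors deposited log2 RPKM for each peak (rows) in each library (columns), 1 table per mark. Every value returned a whole number of reads (tolerance 0.05) or the floor of 0.9 reads that the authors gave a peak without reads. The build GRCm38 and the tools deepTools 3.5.1, ChIPseeker 1.34.1, DESeq2, MACS2 2.2.9.1, Bowtie2 and DiffBind 3.8.0 are named, with no role or order, per the submitters' processing notes. Of 25835 H3K4me3 and 54362 H3K27ac rows, 8 each lay off chromosomes 1 to 19 and X and were left out. The H3K27ac libraries held 7.60 M to 16.9 M reads. A column without a code digit was matched to its sample by mark, age and mouse number.

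Values were quantile normalized and fitted over all peaks of a mark with limma 3.58.1 in R 4.3.3 (empirical Bayes with a trend, the 4 age groups in 1 model), with Benjamini-Hochberg adjustment over the table. No pseudocount was added and no peak was filtered out. SE is that of the fit. Each library is 1 animal with 1 library per mark, so p-values measure the spread between animals and libraries together. Alternatives were the deposited scale, median centring, limma voom on recovered reads, a filter at the lower quartile, the digit in the library code, the mouse number series, the replicate number and the epithelium and stroma difference as terms, libraries left out, and stricter distances to H3K27ac. The fit was tested on simulated data.

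The named peaks were those of genes whose symbol is no predicted, clone or Riken name: the 12 with the smallest p in each direction for aged group 3, 4 in each direction for the other contrasts, the 10 highest, the 5 widest and up to 4 of the highest per gene list. A few of these genes are not reported here. Gene names are those of the deposited table, of which 14515 of 15805 were found in RefSeq, and places were set from RefSeq starts. The set of peaks, the lists and the rules were chosen with earlier results of these data known.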

Additional observations from a re-analysis of the deposited data

Results flagged for a closer look

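A library that stood far from the others of its age group was found in 7 of 188 groups of library values examined, and chance alone gives about 1 in 20. The share of peak reads that fell in peaks without H3K27ac was 4.54% in 1 library of aged group 1, above the other 3. At Gfra2 1 library of aged group 1 was low, at 1.61 log2 RPKM. At Dab1 1 library of aged group 1 was high, at 1.03, and 1 of aged group 3 was far above the rest of its group, at 2.26. At the peak named for Cit 1 library of aged group 2 was high, at 1.56. At Pkib the lowest young library, at 4.49, stood apart. At Lrrn4 1 library of aged group 3, at 2.90, lay inside the young range, away from the other 9.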

How the results depend on the processing

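Low read numbers are the main limit: the median member drew 36.4 reads per library, and peaks without reads sit at the floor. For aged group 3 against young, 1671 members were called. The count was 687 without peaks under the lower quartile (2546 members tested), 538 with the library code digit, 770 with the mouse number series, 63 with the epithelium and stroma difference, and 558 without libraries of code digit 6. It was 1297 to 2012 with each library left out. It was 1616 and 1418 where no H3K27ac peak lay within 1 and 5 kb, and 1664 without members under 5 reads, an alternative chosen after seeing the data. Of the 24 members named for the smallest p, only 8 were left to test without peaks under the lower quartile. At single named peaks, the Skap1 peak turned to −0.18 (adjusted p by limma 0.845) with the epithelium and stroma difference.

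For aged group 2 against young, 12 were called, and 30 with median centring, 4 with voom, 2 with the filter, 7 with the code digit, 0 with the mouse number series, 0 without code digit 6, and 2 to 13 with each library left out. Mouse number series and age are nearly confounded in that contrast. For aged group 1 the count was 0, 1 with voom, and 0 with each library left out. For aged group 3 against aged group 2, 11 were called, and 0 as deposited, 20 with median centring, 97 with voom, 1 with the filter, 0 with the code digit, 50 with the mouse number series, 0 with the epithelium and stroma difference, 0 without code digit 6, and 0 to 340 with each library left out. The causes were not tested.

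With the replicate number as a block, 1414 members were called for aged group 3 against young, 11 for aged group 2, 0 for aged group 1 and 0 between aged groups 3 and 2. Libraries with the same number did not deviate together (correlations from −0.224 to 0.229), so the numbers do not pair animals.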

Other observations

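Several gene lists had members that the report does not describe, again for aged group 3 against young mice (30.7% of all peaks called by limma). Of 11 members at blood endothelium genes 2 rose and 0 fell. The risers were the peak in the body of Erg and Flt1, the VEGF receptor 1 (0.83 ± 0.21, limma adjusted p = 0.00527). The start peak of Erg (−0.14 ± 0.34), Plvap (−0.36 ± 0.19), Pecam1 (0.60 ± 0.28) and Sox18 (−0.26 ± 0.20) did not pass. Of 10 germline and meiosis members 1 rose, at Piwil1 (0.72 ± 0.23), and 3 fell, at Mos, the cohesin gene Smc1b and Trim71. Mei4, which acts in meiotic recombination, held the highest level of that list (3.42 log2 RPKM) and was at 0.18 ± 0.11, and Tdrd5 was at 0.01 ± 0.14. Of 12 sperm gene members 2 rose, both in the body of Cfap43, and 3 fell, at Dnah1, Cfap44 and Spata18, which all lie at starts.

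Among 8 members at Polycomb and Trithorax subunit genes, Bmi1 (0.40 ± 0.15) and Kdm2b (0.79 ± 0.29) rose and Cbx8 fell by 0.45 (SE 0.16). Of 9 B cell members 2 fell, at the start of Irf4, a factor of plasma cells, by 0.61 (SE 0.16) and in the body of Pax5, and 0 rose. In the remaining lists 1 of 5 skeletal and cardiac muscle members fell (Pygm) and 1 of 5 liver and gut members fell (Lgr5), while 0 of 2 neutrophil and mast cell members, 0 of 2 stroma members and 0 of 6 protocadherin members were called.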
